A study of Ovis aries with 6 samples.

Results

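The VEGF and angiopoietin ligands and receptors were followed across the cell types of the ewe ovary. The group held 9 of the 30574 genes in the count matrices and was fixed by gene name, and earlier results of these data were known when it was chosen. VEGFA, VEGFC, ANGPT1 and ANGPT2 encode ligands, KDR, FLT1 and FLT4 encode VEGF receptors, and TEK and TIE1 encode the receptors of the angiopoietin arm. RNA of single cells was counted in the ovaries of 6 Hu ewes, a Chinese breed known for large litters. The HLS group was 3 ewes with litters of at least 3 lambs, and the LLS group was 3 ewes labelled with a litter size below 2. The ewes were adult, no agent or edited allele was named for either group, all were slaughtered within hours of oestrus, and 1 ovary of each was digested whole and made into 1 library. The data thus describe a single stage of the cycle and cells that survived enzymatic digestion. The ewe was the replicate throughout, because cells of a library are not independent.

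VEGFA, made by cells that need a blood supply, binds KDR, the main signalling receptor of blood vessel endothelium, and FLT1, which binds VEGFA tightly, signals weakly and also exists as a secreted decoy. VEGFC acts mainly through FLT4, the receptor that drives growth of lymphatic vessels. ANGPT1, typically made by mural cells, activates TEK (Tie2) and steadies vessels, ANGPT2 is a context-dependent antagonist of TEK that loosens them, and TIE1 is an orphan receptor that modulates TEK. In the ovary these genes are known for the vascular growth that accompanies each follicle and corpus luteum.

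The libraries held 43329214 to 75549906 UMI (unique molecular identifiers, each standing for 1 counted RNA molecule), and 36457 of 52290 barcodes were retained. Library pairs shared 13 to 28 barcodes. Clustering without the 9 genes and without 23 other genes of the pathway gave 32 clusters, which were named from marker lists. Endothelial-like cells numbered 14497 (39.8% of all, and 19.7% to 54.2% within an ewe). There were 3769 stromal-like, 2907 granulosa-like, 2578 immune-like, 2564 perivascular-like and 1924 theca-like cells, and 4393 cells that carried stromal and smooth muscle markers together and were called PDGFRA/ACTA2 cells after their leading genes. Among the 7 main types, all 12 endothelial markers, including CDH5, VWF and PECAM1, were highest in endothelial-like cells. So were 11 of 12 granulosa markers, 6 of 8 theca markers, 8 of 11 stromal markers, 9 of 12 perivascular markers and 17 of 17 immune markers in their own types. These markers also named the clusters and were not kept out of the clustering, so their counts are no independent test. Some endothelial clusters belonged largely to a few ewes. HLS replicate 2 and LLS replicate 1 held 97.5% of the cells of 1 cluster, and another, with 93.9% of its cells in 2 ewes, came mainly from HLS replicate 1. Levels are given as UMI of a gene per 10000 UMI of a cell type in an ewe, and as mean ± SD over 6 ewes unless said otherwise. A 3' count compares 1 gene across cells and not the levels of different genes, and it does not separate splice forms such as those of VEGFA or the soluble form of FLT1.

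The 5 receptors and the ligand ANGPT2 were higher in endothelial-like cells, and the other ligands were higher elsewhere. Against the mean of the other 6 main types, 6 of the 9 genes were higher in endothelial-like cells (edgeR on sums per ewe with the ewe as a block, adjusted p under the 0.05 threshold over 14357 genes), where 35.7% of all genes were called higher, and 3 were lower, where 32.5% of all genes were. The lower ones were VEGFA, VEGFC and ANGPT1. The median log2 difference of the 9 genes was 4.57 in endothelial-like cells, beside 0.0061 over all genes. In granulosa-like cells VEGFA, VEGFC and ANGPT2 were higher (28.1% of all genes), and in stromal-like cells VEGFC, ANGPT1 and ANGPT2 (23.1%). VEGFC and ANGPT1 were also higher in theca-like cells (29.2%) and in PDGFRA/ACTA2 cells (24.2%). The mean of the other types was on the log scale, so a type with almost none of a gene lowered it. ANGPT1 was 0.00146 in endothelial-like and 0.00942 in granulosa-like cells. Its levels in theca-like (0.0562), stromal-like (0.0747) and PDGFRA/ACTA2 cells (0.0849) were above these but below perivascular-like cells (0.297). Perivascular-like cells were higher in ANGPT1 alone of the 9 (24.6%), and immune-like cells in VEGFA and ANGPT1 (33.5%). The number of genes called lower was 4 in each of granulosa-like (28.2% of all genes), theca-like (32.5%), stromal-like (19.1%) and PDGFRA/ACTA2 cells (22.8%), 3 in immune-like cells (34.6%) and 1 in perivascular-like cells (22.8%). Outside endothelial-like cells the share of the 9 genes called higher was near these background shares.

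**Figure D1:**
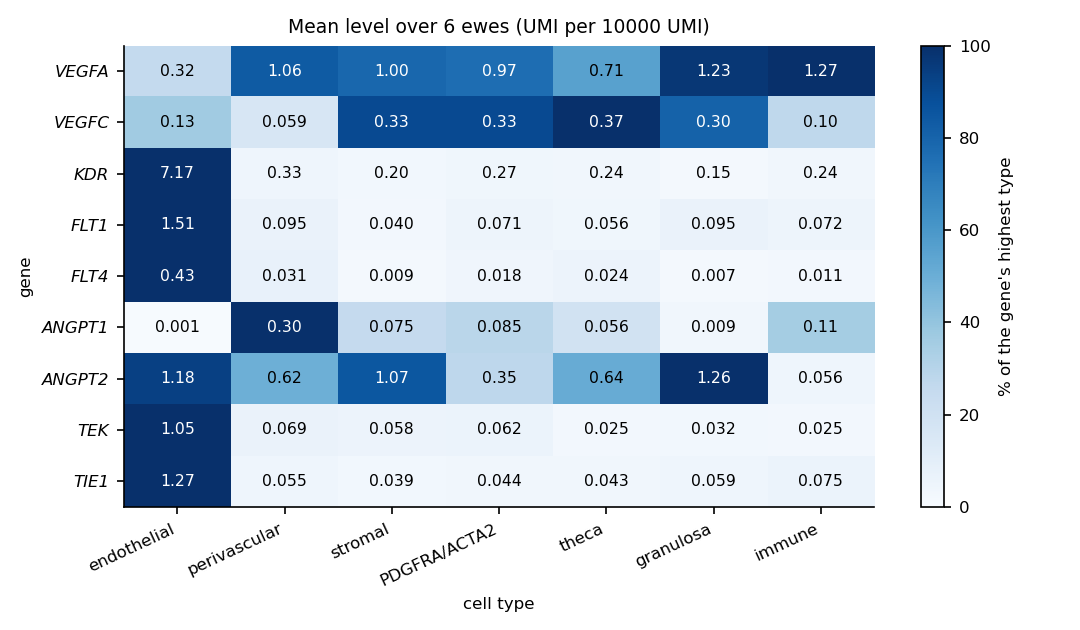
Mean level of each of the 9 genes (rows) in the 7 main cell types (columns), in UMI per 10000 UMI averaged over 6 ewes, with the colour as a percentage of the gene's highest type. The 5 receptors stand out in endothelial-like cells, with KDR at 7.17, while VEGFA, VEGFC, ANGPT1 and ANGPT2 have their highest values in other columns.

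VEGFA RNA was found in every main type and was lowest in endothelial-like cells, the cells that bear its receptors. In endothelial-like cells its lowest, median and highest levels over ewes were 0.244, 0.328 and 0.401. In granulosa-like cells they were 0.535, 1.32 and 1.61, and in immune-like cells 0.363, 1.42 and 1.90. The granulosa-like and endothelial-like levels did not overlap, while the lowest immune-like level fell among the endothelial-like ones. The means in the other types were 1.06 ± 0.183 in perivascular-like, 1.0 ± 0.240 in stromal-like, 0.973 ± 0.162 in PDGFRA/ACTA2 and 0.707 ± 0.180 in theca-like cells. The edgeR difference from the mean of the other types was -1.58 ± 0.15 (log2, SE) in endothelial-like cells (adjusted p = 4.50e-12), 0.85 ± 0.13 in immune-like cells (adjusted p = 3.59e-07) and 0.42 ± 0.13 in granulosa-like cells (adjusted p = 0.00494). Immune-like cells ranked first and granulosa-like cells next, but the gap between them was 0.29 ± 0.62 on the log2 scale (SD, n = 6 ewes), positive in 4 of 6 ewes, with p = 0.3125 in an exact two-sided sign-flip permutation test. The neighbours from granulosa-like down to PDGFRA/ACTA2 cells did not differ beyond their spread either. The step from theca-like to endothelial-like cells was 1.10 ± 0.23 and was present in 6 of 6 ewes (exact p = 0.03125, the smallest that 6 ewes allow).

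Within immune-like cells, VEGFA was high in the cluster whose leading genes include C1QA, C1QB and C1QC, complement genes that macrophages express. There the levels were 0.470, 2.08 and 2.37 (HLS replicates 1 to 3) and 1.03, 2.46 and 2.75 (LLS replicates 1 to 3). In the cluster led by the T and NK cell genes GNLY, CD52 and CD3E they were 0.229, 0.528 and 0.321 (HLS replicates 1 to 3) and 0.282, 0.361 and 0.507 (LLS replicates 1 to 3). VEGFA was higher in the first cluster in each of the 6 ewes, and HLS replicate 1 had the lowest level in both. These clusters were compared after their values had been seen, and no test was run between them.

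Among the main types, VEGFC, the lymphatic growth factor, had its highest levels in theca-like, PDGFRA/ACTA2 and stromal-like cells. The arterial-like part of the endothelium, described below, stood higher, at 0.886 ± 0.147, with ewes from 0.688 to 1.12. Its lowest, median and highest levels were 0.259, 0.349 and 0.564 in theca-like cells and 0.0714, 0.124 and 0.208 in endothelial-like cells. The means were 0.332 ± 0.138 in PDGFRA/ACTA2, 0.331 ± 0.112 in stromal-like, 0.297 ± 0.130 in granulosa-like, 0.10 ± 0.0689 in immune-like and 0.0588 ± 0.0332 in perivascular-like cells. Theca-like and PDGFRA/ACTA2 cells, first and next in the order, were not separated (0.30 ± 0.39 log2, higher in 4 of 6 ewes, exact p = 0.15625). Granulosa-like exceeded endothelial-like cells by 0.96 ± 0.59 in 6 of 6 ewes, and immune-like exceeded perivascular-like cells by 0.85 ± 0.70 in 6 of 6 ewes (exact p = 0.03125 for each). By edgeR VEGFC was 1.21 ± 0.19 higher in theca-like cells than the mean of the other types (adjusted p = 1.11e-06), and -2.19 ± 0.29 in perivascular-like cells (adjusted p = 8.68e-08).

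ANGPT1, the TEK agonist, was highest in perivascular-like cells, the pericytes and smooth muscle cells that wrap vessels. Its levels there were 0.185, 0.240 and 0.224 (HLS replicates 1 to 3) and 0.334, 0.475 and 0.324 (LLS replicates 1 to 3). Each LLS ewe was above each HLS ewe, and the groups did not overlap for 8.8% of all genes tested in these cells. The group difference did not pass the test, as given below. Immune-like cells followed at 0.105 ± 0.0617, then PDGFRA/ACTA2 at 0.0849 ± 0.0589, stromal-like at 0.0747 ± 0.0315, theca-like at 0.0562 ± 0.0169 and granulosa-like cells at 0.00942 ± 0.00477. The step from perivascular-like to immune-like cells was 1.22 ± 0.70 log2 and was present in 6 of 6 ewes (exact p = 0.03125), and that from theca-like to granulosa-like cells was 1.87 ± 0.53, again in 6 of 6 (exact p = 0.03125). By edgeR the perivascular difference was 3.25 ± 0.20 (adjusted p = 2.94e-16) and the immune difference 1.90 ± 0.25 (adjusted p = 2.83e-08). Endothelial-like cells were nearly free of ANGPT1, with 0 to 6 UMI per ewe in 1096 to 3458 cells, so that their fitted difference of -5.52 rests on few counts. Among immune-like cells, the C1QA cluster held 0.0475 to 0.304 ANGPT1 UMI per 10000.

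ANGPT2, the TEK antagonist, had its highest levels in granulosa-like, endothelial-like and stromal-like cells and varied widely between ewes. In endothelial-like cells its levels were 0.80, 1.92 and 0.999 (HLS replicates 1 to 3) and 1.46, 0.916 and 0.969 (LLS replicates 1 to 3). In granulosa-like cells they were 0.163, 1.28 and 2.61 (HLS replicates 1 to 3) and 0.493, 0.831 and 2.17 (LLS replicates 1 to 3). HLS replicate 3 and LLS replicate 3 were high and HLS replicate 1 low in granulosa-like cells, whereas HLS replicate 2 was the highest in endothelial-like cells. Stromal-like cells had 1.07 ± 0.605, theca-like 0.640 ± 0.173, perivascular-like 0.624 ± 0.109, PDGFRA/ACTA2 0.345 ± 0.213 and immune-like cells 0.0563 ± 0.0269. After TMM scaling, a library size correction, endothelial-like cells ranked first, but they exceeded granulosa-like cells by 0.49 ± 1.46 log2, in 4 of 6 ewes (exact p = 0.46875), and by plain UMI the means stand in the other order. PDGFRA/ACTA2 exceeded immune-like cells by 2.04 ± 1.28 in 6 of 6 ewes (exact p = 0.03125). The edgeR difference was 1.43 ± 0.24 in endothelial-like cells (adjusted p = 2.71e-06), 1.20 ± 0.26 in granulosa-like cells (adjusted p = 1.48e-04) and 1.02 ± 0.26 in stromal-like cells (adjusted p = 0.00143).

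The compartments that held ANGPT2 were themselves divided. In the stromal cluster led by PTCH1, COL11A1 and LUM, ANGPT2 was 0.877, 1.92 and 1.07 (HLS replicates 1 to 3) and 2.05, 0.583 and 2.31 (LLS replicates 1 to 3), and in the stromal cluster led by SERPINF1, DPT and PI16 it was 0.0274 to 0.133. The perivascular cluster that carried the contractile gene MYH11 held 1.18, 1.64 and 1.04 (HLS replicates 1 to 3) and 1.67, 0.635 and 0.843 (LLS replicates 1 to 3), against 0.290 to 0.691 in the cluster led by RGS5 and KCNJ8, genes known from pericytes. The levels of the 2 stromal clusters did not overlap, and those of the 2 perivascular clusters overlapped through LLS replicate 2. ANGPT1, by contrast, lay in both perivascular clusters (0.239 to 0.459 in the MYH11 cluster and 0.149 to 0.480 in the RGS5 cluster). These clusters were also compared after their values had been seen.

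**Figure D2:**
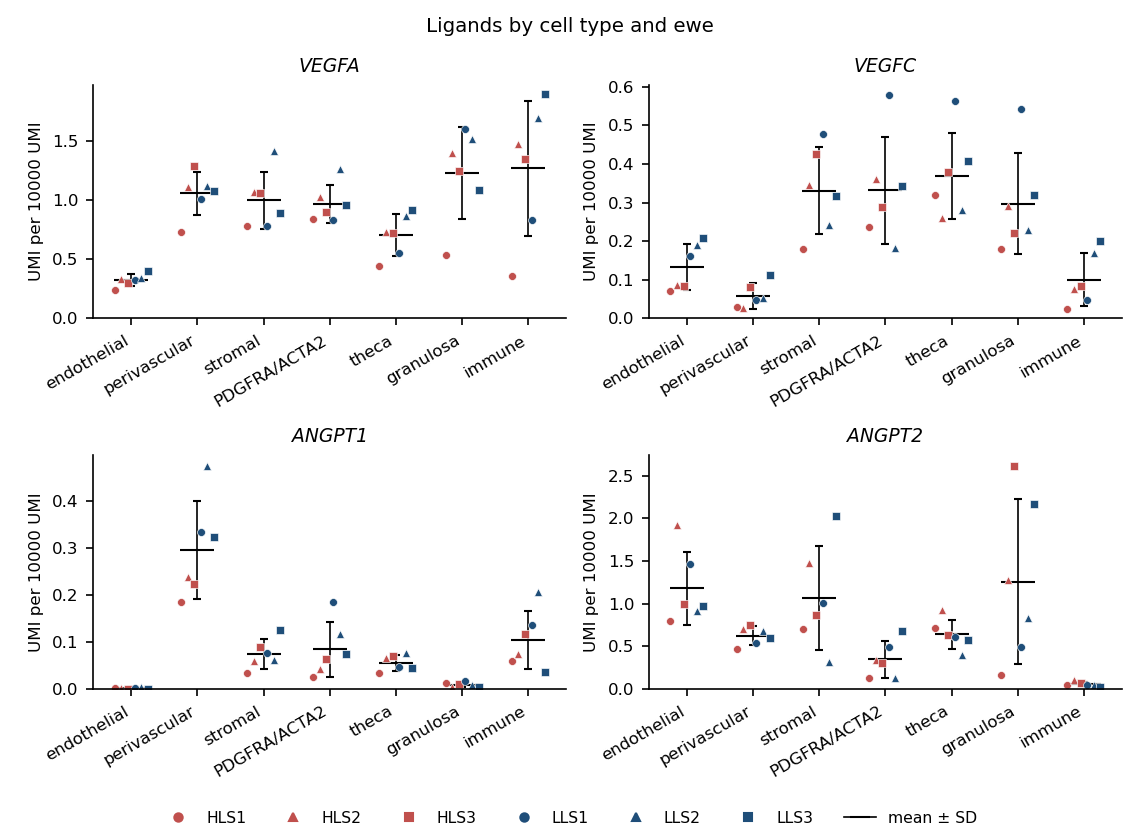
Levels of VEGFA, VEGFC, ANGPT1 and ANGPT2 in each ewe (points, with 1 symbol an ewe and the colour for the litter size group) across the 7 main cell types, in UMI per 10000 UMI, with black bars for the mean ± SD over 6 ewes. VEGFA is lowest in endothelial-like cells (0.324), ANGPT1 is highest in perivascular-like cells (0.297), and the granulosa-like ANGPT2 points run from 0.163 to 2.61.

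Granulosa-like cells were clustered again on their own, again without the 9 genes, to see where their ligands lay. Levels are given for ewes with at least 10 cells of a sub-cluster. In a sub-cluster of 432 cells with CCN3 and the vasoactive peptide gene ADM among its leading genes, ANGPT2 stood at 2.17 in HLS replicate 2, 5.54 in HLS replicate 3, 3.62 in LLS replicate 2 and 4.97 in LLS replicate 3. In the 311 cumulus-like cells, led by AMH, FST and IHH, ANGPT2 was 0.508, 1.94 and 6.38 (HLS replicates 1 to 3) and 1.98, 3.65 and 2.42 (LLS replicates 1 to 3). In both sub-clusters HLS replicate 3 was the highest ewe. The cumulus-like cells also carried VEGFA, at 1.32, 1.66 and 2.71 (HLS replicates 1 to 3) and 5.13, 2.28 and 2.50 (LLS replicates 1 to 3). In the sub-cluster with cell cycle genes (190 cells) VEGFA was 2.06 in HLS replicate 2, 2.82 in HLS replicate 3, 6.39 in LLS replicate 1, 1.46 in LLS replicate 2 and 1.88 in LLS replicate 3. LLS replicate 1 was the highest in both, through 16 and 10 cells. A sub-cluster of 273 cells led by PPP1R1A and PHGDH was low in VEGFA (0 to 0.235). The sub-cluster led by the matrix genes MMP9 and FN1 (192 cells) was low in ANGPT2 (0 to 0.161) but held VEGFC at 0.527 to 1.08. VEGFC was 0.660 in HLS replicate 2 and 1.58 in LLS replicate 1 in the cells with CYP19 (aromatase), LHCGR and INHBA. Most cells of 1 sub-cluster came from HLS replicate 1 and nearly all of another from LLS replicate 2, so the composition of the granulosa-like cells differed between ewes, and its part in the spread of ANGPT2 and VEGFA was not tested.

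**Figure D3:**
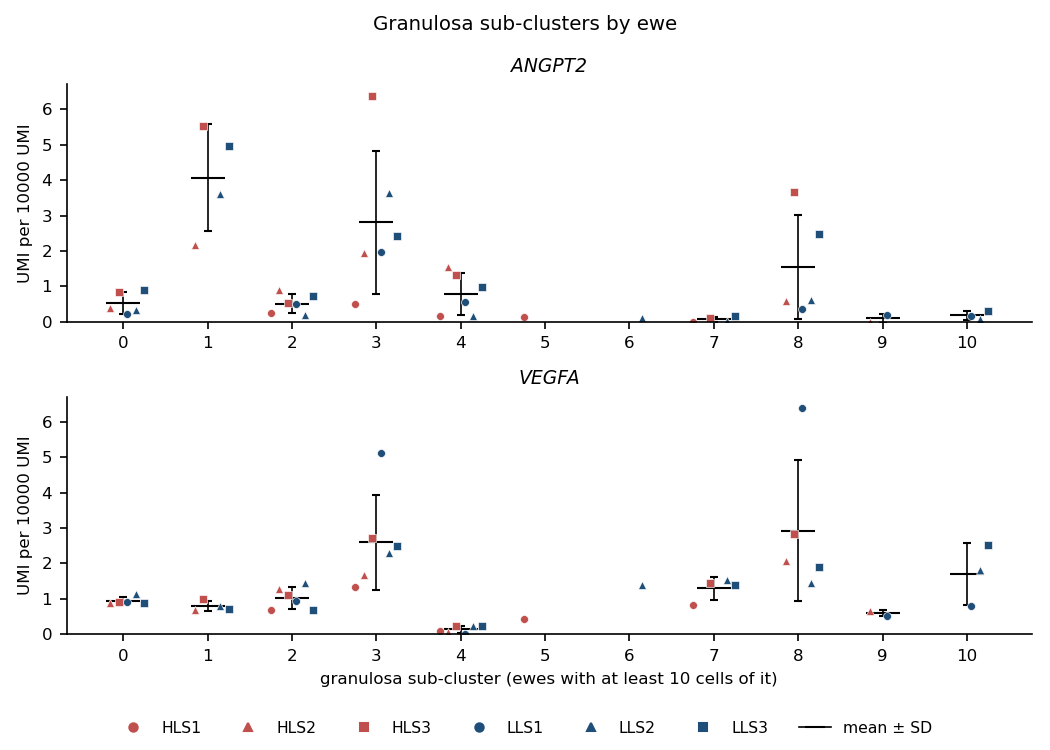
Levels of ANGPT2 and VEGFA in each granulosa-like sub-cluster and ewe (points, with 1 symbol an ewe and the colour for the litter size group, and the mean ± SD in black), in UMI per 10000 UMI, for ewes with at least 10 cells of the sub-cluster. ANGPT2 is highest in sub-cluster 1 (CCN3 and ADM) and in the cumulus-like sub-cluster 3, where it reaches 6.38, and VEGFA reaches 6.39 in sub-cluster 8 (cell cycle genes).

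The VEGF receptors were expressed in endothelial-like cells of every ewe. KDR, the main VEGFA receptor, stood at 3.64, 9.09 and 6.18 (HLS replicates 1 to 3) and 9.82, 7.21 and 7.09 (LLS replicates 1 to 3), and its mean in the other types was 0.150 to 0.326. HLS replicate 1 was the lowest ewe and LLS replicate 1 the highest. FLT1, the decoy-type receptor, was 0.882, 1.52 and 1.76 (HLS replicates 1 to 3) and 1.46, 1.83 and 1.58 (LLS replicates 1 to 3), against means of 0.0403 to 0.0950 elsewhere, and HLS replicate 1 was again the lowest. FLT4, the VEGFC receptor, was 0.105, 0.661 and 0.25 (HLS replicates 1 to 3) and 0.887, 0.514 and 0.162 (LLS replicates 1 to 3), against 0.00728 to 0.0310 elsewhere, with HLS replicate 1 the lowest and LLS replicate 1 the highest. Endothelial-like cells exceeded the next type, perivascular-like cells, by 4.60 ± 0.73 log2 for KDR, by 4.15 ± 0.87 for FLT1 and by 3.53 ± 0.87 for FLT4, in 6 of 6 ewes each (exact p = 0.03125). By edgeR the endothelial differences were 5.26 ± 0.20 for KDR (adjusted p = 3.91e-23), 4.57 ± 0.16 for FLT1 (adjusted p = 1.26e-24) and 4.92 ± 0.20 for FLT4 (adjusted p = 2.29e-22). When every cell was thinned to 2000 UMI, a median of 67.9% of endothelial-like cells per ewe still held a KDR UMI (89.9% unthinned), against 2.32% to 6.07% in the other main types.

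The angiopoietin receptors were endothelial too. TEK was 0.781, 0.783 and 1.29 (HLS replicates 1 to 3) and 0.787, 1.35 and 1.29 (LLS replicates 1 to 3) in endothelial-like cells and 0.0250 to 0.0694 on average in the other types. TIE1, its partner, was 0.959, 1.20 and 1.20 (HLS replicates 1 to 3) and 1.58, 1.51 and 1.20 (LLS replicates 1 to 3), against 0.0395 to 0.0750 elsewhere. In 3 ewes the level was between 0.781 and 0.787 for TEK and in the others between 1.29 and 1.35, and both sets held ewes of both groups. TEK exceeded the next type, perivascular-like cells, by 3.96 ± 0.99 log2, and TIE1 exceeded immune-like cells by 3.8 ± 0.49, in 6 of 6 ewes each (exact p = 0.03125). By edgeR the differences were 4.82 ± 0.15 (adjusted p = 4.54e-26) and 4.89 ± 0.15 (adjusted p = 3.97e-26). The exact p values here and above are given unadjusted. Each of the 9 genes was tested at 6 steps between neighbouring types, whose order was taken from the same levels. Adjusted over all these steps together, each p of 0.03125 became 0.1125, so no step passed the threshold. Adjusted over the 9 tests of the highest type against the next alone, it became 0.046875.

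**Figure D4:**
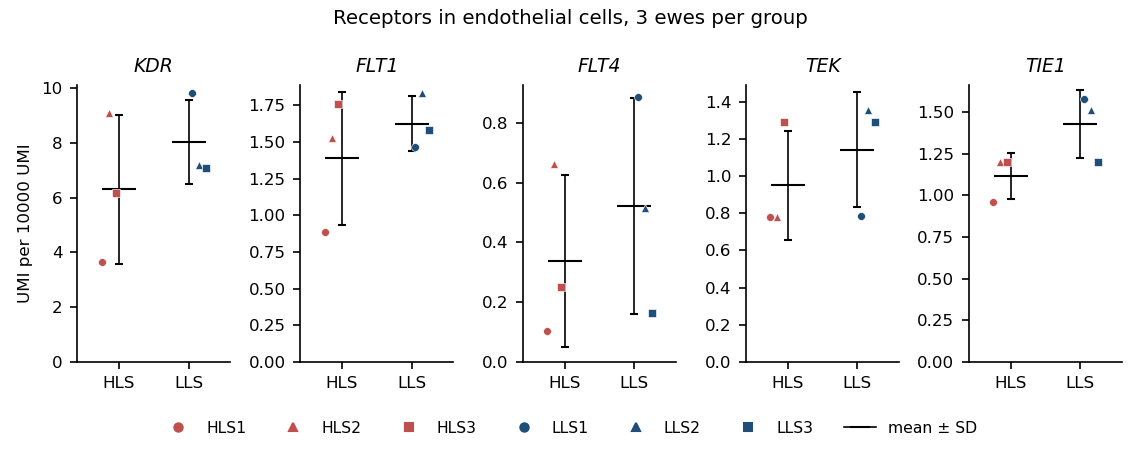
Levels of KDR, FLT1, FLT4, TEK and TIE1 in endothelial-like cells of each ewe (points, by litter size group), in UMI per 10000 UMI, with black bars for the mean ± SD of 3 ewes. The HLS and LLS points overlap for all 5 receptors, and HLS replicate 1 is lowest for KDR (3.64), FLT1 (0.882), FLT4 (0.105), TEK (0.781) and TIE1 (0.959).

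The small receptor signal outside endothelial-like cells was set beside 8 endothelial reference genes, among them CDH5, CLDN5 and PECAM1. These stood at 32.6 ± 2.82 UMI per 10000 in endothelial-like cells, 5.6 ± 1.63 in immune-like cells and on average 0.682 to 1.75 in the other types. Per 100 reference UMI, KDR was 21.9 ± 6.51 in endothelial-like cells. Granulosa-like cells had 23.0 ± 8.13, theca-like cells 23.1 ± 11.2, stromal-like cells 25.3 ± 6.46, PDGFRA/ACTA2 cells 21.0 ± 10.03 and perivascular-like cells 20.05 ± 6.11. The mean ratios of KDR to the reference genes in these types lay within 1 SD of that in endothelial-like cells, whereas immune-like cells had 4.35 ± 1.75. KDR itself was 0.240 ± 0.119 UMI per 10000 in immune-like cells, among the means of the other types. Their low ratio thus goes with their higher reference level, whose genes were not separated. FLT1 in granulosa-like cells was 16.1 ± 11.8 per 100 reference UMI, beside 4.58 ± 0.80 in endothelial-like cells, with ewes from 5.88 to 37.8. TIE1 in granulosa-like cells was 9.03 ± 2.78 beside 3.89 ± 0.557, and TEK in stromal-like cells was 7.6 ± 1.54 beside 3.18 ± 0.719. The part of RNA from endothelial cells in these higher ratios was not tested.

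By origin, the endothelial-like cells gave a median over ewes of 88.8% (81.0% to 91.7%) of all KDR UMI, with the range over ewes in parentheses, 85.9% (82.6% to 90.1%) of FLT1, 83.6% (76.5% to 88.8%) of FLT4, 86.1% (83.4% to 90.3%) of TEK and 86.6% (74.7% to 91.6%) of TIE1. They also gave 57.8% (23.6% to 79.0%) of ANGPT2. Their share of VEGFA was 28.4% (9.04% to 46.2%), although their level was the lowest of any main type, beside 15.3% (3.36% to 27.5%) from stromal-like cells and 12.7% (7.5% to 27.1%) from granulosa-like cells. In 2 ewes both of these gave more VEGFA than endothelial-like cells, with shares of 19.5% and 26.5% beside 9.04% in HLS replicate 3, and of 27.5% and 27.1% beside 10.5% in LLS replicate 2. ANGPT1 came from perivascular-like cells at 33.5% (12.9% to 44.6%), stromal-like cells at 18.6% (3.98% to 28.1%) and theca-like cells at 14.6% (2.39% to 24.0%). Granulosa-like cells gave 8.30% (1.12% to 43.2%) of ANGPT2. The separate cell cycle class, some clusters of which carried endothelial markers, gave 5.66% (2.77% to 17.1%) of KDR. It gave 11.1% (5.37% to 19.0%) of FLT4, and these UMI are not in the endothelial-like shares. Such a share joins the number of cells of a type with the RNA of each cell. Endothelial-like cells were 19.7% of cells in HLS replicate 3 and 27.6% in LLS replicate 2, and 38.5% to 54.2% in the others. Their VEGFA level ran from 0.244 to 0.401 over all ewes. The parts of cell number and level in these shares were not tested.

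Within the endothelium the receptors and ligands divided by vessel type. Endothelial-like cells, clustered again without the 9 genes, held 770 lymphatic-like, 1034 arterial-like and 921 tip-like cells (tip cells lead vessel sprouts), and the remaining 11772 were kept together. FLT4 was highest in lymphatic-like cells, at 3.19, 4.61 and 3.82 (HLS replicates 1 to 3) and 5.0, 3.79 and 3.75 (LLS replicates 1 to 3). It was 0.0692 ± 0.0839 in arterial-like, 0.482 ± 0.198 in tip-like and 0.254 ± 0.30 in the remaining cells. The remaining cells of HLS replicate 2 (0.555) and LLS replicate 1 (0.714) stood above those of the other ewes (0.0462 to 0.108). They gave 1544 and 2710 FLT4 UMI, against 475 and 1060 from lymphatic-like cells. Those of HLS replicate 1 gave 116 against 104, and those of the other ewes 50 to 105 against 192 to 387. HLS replicate 2 and LLS replicate 1 held most cells of the remaining sub-clusters led by SPP1 (FLT4 at 0.681) and OIT3 (0.805). FLT1 was lowest in lymphatic-like cells, at 0.215, 0.0291 and 0.0796 (HLS replicates 1 to 3) and 0.0378, 0.137 and 0.0333 (LLS replicates 1 to 3), against 1.83 ± 0.286 in arterial-like and 2.10 ± 0.555 in tip-like cells. Both held in each of the 6 ewes. Of the 8 genes that could be tested (ANGPT1 was too low), 3 were higher in lymphatic-like than in the mean of the other subtypes (22.2% of 10885 genes) and 3 lower (20.1%). FLT4 was 4.60 ± 0.30 log2 higher (edgeR adjusted p = 1.74e-11), FLT1 -4.71 ± 0.26 (adjusted p = 8.89e-13) and KDR -0.64 ± 0.10 (adjusted p = 1.51e-05). ANGPT2 was also higher in lymphatic-like cells, at 3.23, 5.04 and 3.22 (HLS replicates 1 to 3) and 3.23, 1.45 and 2.23 (LLS replicates 1 to 3), with a difference of 2.47 ± 0.21 (adjusted p = 1.80e-09), and VEGFA was 0.67 ± 0.14 higher (adjusted p = 4.38e-04).

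Among the 4 endothelial subtypes, VEGFC, the FLT4 ligand, was instead highest in arterial-like cells. Its levels in arterial-like cells were 0.872, 0.688 and 0.783 (HLS replicates 1 to 3) and 0.923, 0.931 and 1.12 (LLS replicates 1 to 3). In lymphatic-like cells it averaged 0.0207 ± 0.0145, in tip-like cells 0.273 ± 0.131 and in the remaining cells 0.0843 ± 0.0614. Some remaining cells were near the arterial-like level. Over all ewes together VEGFC was 0.786 in 302 cells led by LTBP1 and 0.659 in 317 cells led by FABP4. The arterial-like sub-clusters of 630 and 404 cells had 1.07 and 0.667. The arterial-like difference was 3.54 ± 0.27 log2 by edgeR (adjusted p = 9.28e-10) and the lymphatic-like one -3.64 ± 0.50 (adjusted p = 2.41e-06). Arterial-like cells were also higher in FLT1 by 1.6 and in VEGFA by 0.98, and lower in FLT4 (-3.38) and ANGPT2 (-2.94), so that 3 genes were higher (13.1% of all genes) and 2 lower (12.3%). Tip-like cells were higher in FLT1 (1.78), VEGFC (1.21) and KDR (0.26) and lower in VEGFA (-1.18), with 15.8% and 15% of all genes called in those directions. The remaining cells were higher in ANGPT2 (0.85), KDR (0.49) and FLT1 (1.33) (15.5%) and lower in VEGFA (-0.47), VEGFC (-1.11) and FLT4 (-1.54) (12.1%). Here too the mean was on the log scale, and a subtype low in a gene lowered it. FLT1 was thus called higher in arterial-like, tip-like and remaining cells alike, beside 0.0887 in lymphatic-like cells. VEGFC in tip-like cells was below arterial-like cells (0.886). KDR in tip-like cells averaged 7.08, above lymphatic-like (4.25) and arterial-like (5.99) but below the remaining cells (7.39). ANGPT2 in the remaining cells (1.18) was above arterial-like (0.180) but below lymphatic-like cells (3.07). TEK and TIE1 passed the test in 0 of the 4 subtypes, with differences of -0.25 to 0.34 for TEK and -0.09 to 0.09 for TIE1, and TEK in arterial-like cells was the 1 case with an unadjusted p under 0.05. KDR was lowest in HLS replicate 1 in all 4 subtypes. The 302 remaining cells led by LTBP1, ADAMTS5 and SULF1, singled out after their values were seen, held TEK at 2.39 over all ewes together. Over endothelial-like cells as a whole TEK was 1.05 ± 0.290.

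**Figure D5:**
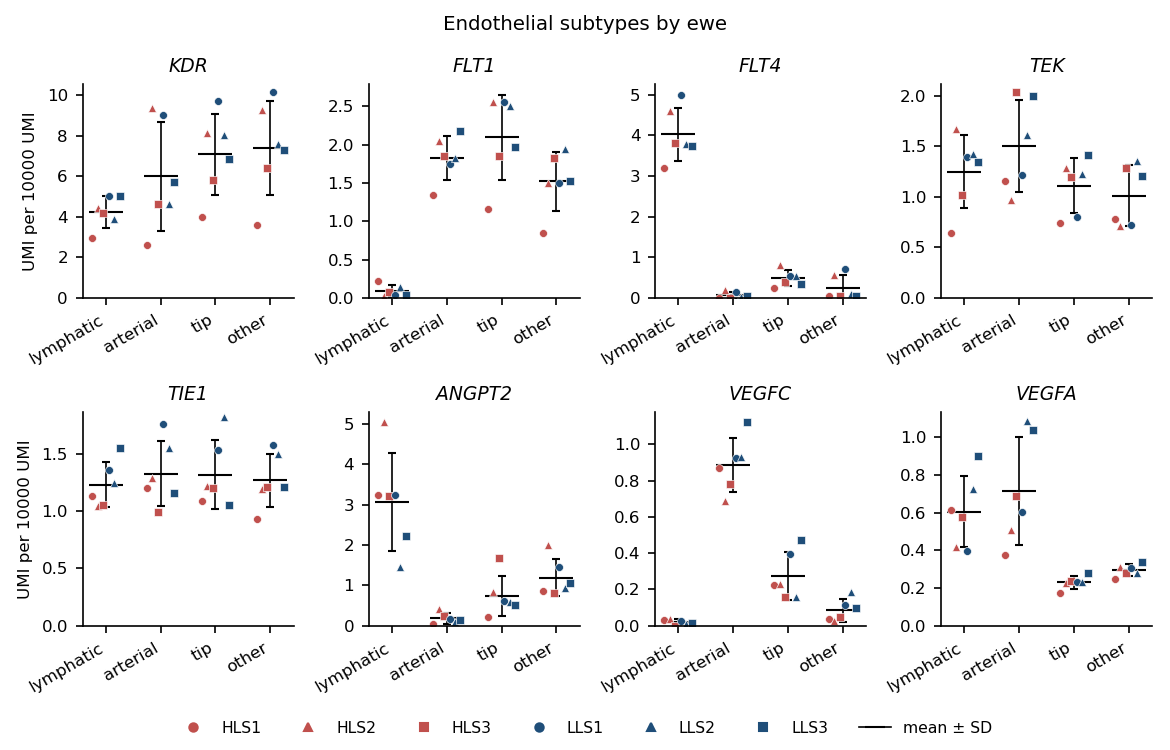
Levels of the genes other than ANGPT1 in lymphatic-like, arterial-like, tip-like and remaining endothelial-like cells of each ewe (points, with 1 symbol an ewe and the colour for the litter size group), in UMI per 10000 UMI, with black bars for the mean ± SD over 6 ewes. FLT4 (mean 4.03) and ANGPT2 (mean 3.07) are high in lymphatic-like cells, where FLT1 averages 0.0887, and VEGFC is highest in arterial-like cells (mean 0.886).

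Other genes of the pathway were examined as a list of 24, of which 23 were in the matrices and 22 were expressed enough to test. In endothelial-like cells 12 of the 22 were higher and 6 lower, where 35.7% and 32.5% of all genes were, and the median log2 difference was 0.32, beside 0.0061 over all genes. The counts higher and lower were 7 and 7 in granulosa-like cells (28.1% and 28.2% of all genes), 4 and 12 in theca-like cells (29.2% and 32.5%), and 8 and 6 in stromal-like cells (23.1% and 19.1%). They were 5 and 10 in immune-like cells (33.5% and 34.6%), 9 and 4 in PDGFRA/ACTA2 cells (24.2% and 22.8%), and 8 and 8 in perivascular-like cells (24.6% and 22.8%). PTPRB, the phosphatase that restrains TEK, was endothelial at 5.36 ± 1.80 (5.46 ± 0.15 log2, edgeR adjusted p = 4.19e-27). The VEGF coreceptor NRP1 was high in perivascular-like (2.91 ± 0.690) and endothelial-like cells (2.51 ± 0.944), and its relative NRP2 in granulosa-like (1.95 ± 0.533) and PDGFRA/ACTA2 cells (1.76 ± 0.712). Within the endothelium NRP1 was lower and NRP2 higher in lymphatic-like cells, with differences of -4.83 ± 0.27 and 2.37 ± 0.17 (edgeR adjusted p = 9.61e-13 and 9.48e-11). Of the further ligands, PGF, which binds FLT1, was 0.151 ± 0.0855 in endothelial-like and 0.168 ± 0.0557 in perivascular-like cells, and ANGPT4 was 0.211 ± 0.0539 in PDGFRA/ACTA2 cells and 0.00290 ± 0.00230 in endothelial-like cells. VEGFB was 0.610 ± 0.154 in stromal-like and 0.324 ± 0.0694 in endothelial-like cells. VEGFD had 34 UMI in all retained cells and was not tested.

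Genes that respond to low oxygen, a known inducer of VEGFA, were counted beside it. Of 17 tested, 12 were higher and 0 lower in granulosa-like cells (28.1% and 28.2% of all genes), with a median log2 difference of 0.76 beside -0.019 over all genes. In immune-like cells 12 were higher and 3 lower (33.5% and 34.6%, median 1.0 beside -0.059), and in endothelial-like cells 5 and 6 (35.7% and 32.5%, median -0.11 beside 0.0061). The other types had more lower than higher, with 2 higher and 9 lower in theca-like cells (29.2% and 32.5%), 1 and 10 in stromal-like cells (23.1% and 19.1%), 3 and 7 in perivascular-like cells (24.6% and 22.8%) and 1 and 9 in PDGFRA/ACTA2 cells (24.2% and 22.8%). Of 10 genes of tip and stalk cells, 9 were higher and 0 lower in endothelial-like cells (35.7% and 32.5% of all genes, median 1.40). Unlike the 9 genes and the pathway list, these 2 lists were not kept out of the clustering, so their counts describe the clusters and are no independent test.

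Over the 42 sums of 7 types in 6 ewes, the genes with the pattern most like each member were looked for among 6459 genes. The sums share ewes, libraries and depth, and the correlations are descriptions. VEGFA was most like LOC121817412 (Pearson's r = 0.929), a long non-coding RNA next to VEGFA in the RefSeq annotation of ARS-UI_Ramb_v3.0. Reads of neighbouring genes may be assigned to either where annotations meet, and this was not tested. VCAN (0.853) and SLC39A6 (0.839) followed. KDR was most like CDH5 (0.974), SOX18 (0.965) and PODXL (0.965), all endothelial genes. TIE1 was most like CDH5 (0.966), TEK like MMRN2 (0.942), FLT1 like PODXL (0.944) and FLT4 like HECW2 (0.925). VEGFC was most like the glycoprotein gene PDPN (0.860), ANGPT1 like MAP2 (0.920) and ANGPT2 like PDZD2 (0.826). Among the members themselves, KDR went with TIE1 (0.941) and TEK (0.930).

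The litter size groups were compared within each cell type. No gene, member or other, passed the threshold in any of the 8 fits (edgeR, 0 of 9868 to 17937 genes, 0% called in each, and 0 members by DESeq2). At an unadjusted p under 0.05 there was 1 member in endothelial-like cells, 2 in theca-like, 1 in PDGFRA/ACTA2 and 1 in perivascular-like cells, where 1.29%, 3.43%, 5.74% and 3.12% of all genes were, and 0 in stromal-like cells (5.06%), granulosa-like cells (4.87%), immune-like cells (4.77%) and all cells (2.75%). In UMI per 10000, HLS and LLS levels did not overlap for 1 of 8 tested members in endothelial-like cells (VEGFC, with 4.37% of all genes), 2 of 8 in theca-like (FLT1 and ANGPT2, 10.6%), 1 of 8 in PDGFRA/ACTA2 (ANGPT1, 10.1%), 1 of 8 in perivascular-like (ANGPT1, 8.8%), 1 of 7 in granulosa-like (TIE1, 14.8%) and 1 of 9 over all cells (TEK, 8.19%), and for 0 of 8 in stromal-like (10.3%) and 0 of 6 in immune-like cells (10.3%). After TMM scaling, TIE1 in granulosa-like cells and TEK over all cells overlapped and VEGFA in endothelial-like cells did not, so that the counts without overlap were 2 of 8 in endothelial-like (4.96% of all genes), 2 of 8 in theca-like (9.26%), 1 of 8 in PDGFRA/ACTA2 (11.3%) and 1 of 8 in perivascular-like cells (8.86%), and 0 elsewhere.

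VEGFC in endothelial-like cells was one of these, at 0.0714, 0.0876 and 0.0843 (HLS replicates 1 to 3) and 0.161, 0.190 and 0.208 (LLS replicates 1 to 3). The highest HLS ewe was below the lowest LLS ewe. The difference was -1.11 ± 0.19 log2 (HLS against LLS, edgeR adjusted p = 1.0), and over all alternatives it was -1.19 to -0.56 with adjusted p from 0.0609 (DESeq2) to 1.0. The smallest difference, -0.56 (adjusted p = 0.958), came from a fit without the endothelial clusters that 2 ewes held, an alternative chosen after seeing the data. The clusters left out held 24.8% of HLS and 2.49% of LLS endothelial-like cells (the one mainly of HLS replicate 1) and 30.6% and 29.6% (the one of HLS replicate 2 and LLS replicate 1). Of the clusters kept, one led by CXCL9 and SELP held 24.4% and 44.8%. Among the subtypes, the HLS and LLS levels of VEGFC did not overlap in arterial-like cells, as in endothelial-like cells as a whole. These cells came from 2 sub-clusters, of which one, with 404 cells, held 222 from HLS replicate 2, 160 from LLS replicate 1 and 21 from LLS replicate 3. In the other, which all 6 ewes shared, VEGFC was 0.872, 1.40 and 0.783 (HLS replicates 1 to 3) and 1.45, 0.953 and 0.908 (LLS replicates 1 to 3), and the groups overlapped. In the remaining endothelial-like cells the levels were 0.0379, 0.0259 and 0.0452 (HLS replicates 1 to 3) and 0.113, 0.188 and 0.0953 (LLS replicates 1 to 3), again without overlap. The ewes shared these cells unequally, and the part of cell composition in the VEGFC difference was not tested. Of 1 sub-cluster with 1748 cells, 1686 came from HLS replicate 1, and of another with 317 cells, 213 came from LLS replicate 2. In the sub-cluster of 2176 cells, to which each ewe gave 47 to 701, VEGFC was 0.114, 0.0372 and 0.026 (HLS replicates 1 to 3) and 0.0729, 0.0413 and 0 (LLS replicates 1 to 3). The groups overlapped there, as they did in the sub-cluster of 2799 cells with CXCL9 among its leading genes, of which 2512 came from LLS replicate 3, at 0.113 and 0.0824 (HLS replicates 2 and 3) and 0.104, 0.196 and 0.0535 (LLS replicates 1 to 3). They did not overlap in the 302 cells led by LTBP1, at 0.203 and 0.326 (HLS replicates 2 and 3) and 1.17, 0.422 and 1.05 (LLS replicates 1 to 3). In the 87 cells led by PTGS2 the HLS ewes were instead higher, on 0 to 4 UMI per ewe. VEGFC there was 0.356 and 0.274 (HLS replicates 1 and 3) and 0.123, 0.174 and 0 (LLS replicates 1 to 3). In tip-like cells the VEGFC levels were 0.226, 0.229 and 0.161 (HLS replicates 1 to 3) and 0.395, 0.155 and 0.472 (LLS replicates 1 to 3) and overlapped. The share of all genes without overlap was not counted in these subtypes and sub-clusters, and many of them were looked at for 1 gene. The smallest exact p that 3 ewes against 3 allow is 0.1, and it is larger where an ewe is missing. No conclusion is drawn from the overlap or its absence there. VEGFA in endothelial-like cells was 0.244, 0.330 and 0.299 (HLS replicates 1 to 3) and 0.326, 0.343 and 0.401 (LLS replicates 1 to 3), a difference of -0.21 ± 0.17 (adjusted p = 1.0) that was near its standard error.

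For ANGPT1 the groups were apart in PDGFRA/ACTA2 and perivascular-like cells, although neither difference passed the test. In PDGFRA/ACTA2 cells it was 0.0246, 0.0422 and 0.0639 (HLS replicates 1 to 3) and 0.186, 0.118 and 0.0750 (LLS replicates 1 to 3), with an edgeR difference of -1.52 ± 0.40 (adjusted p = 0.849). Without LLS replicate 1, the highest ewe, it was -1.04. In perivascular-like cells the difference was -0.69 ± 0.23 (adjusted p = 0.990), and -0.26 when cells over 5% mitochondrial UMI were removed. In theca-like cells ANGPT2 was 0.713, 0.923 and 0.627 (HLS replicates 1 to 3) and 0.603, 0.40 and 0.571 (LLS replicates 1 to 3) (0.71 ± 0.25, adjusted p = 0.956). FLT1 was 0.0259, 0.0256 and 0.0289 (HLS replicates 1 to 3) and 0.167, 0.0508 and 0.0398 (LLS replicates 1 to 3) there (-1.35 ± 0.55, adjusted p = 0.956), and the ewe with the highest FLT1, LLS replicate 1, had 87 theca-like cells and 2.49 reference UMI per 10000 against 0.238 to 0.750 in the others. Without this ewe the FLT1 difference was -0.52.

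The receptors in endothelial-like cells as a whole did not separate the groups. The differences were -0.30 ± 0.31 for KDR, -0.16 ± 0.21 for FLT1, -0.60 ± 0.72 for FLT4, -0.18 ± 0.27 for TEK and -0.27 ± 0.18 for TIE1 (edgeR adjusted p = 1.0 for each). All 5 were below 0, with standard errors of a like or larger size for KDR, FLT1, FLT4 and TEK. Without the endothelial clusters that 2 ewes held, the groups did not overlap for TIE1 (-0.23 ± 0.15, edgeR adjusted p = 0.958). TEK did not overlap there in UMI per 10000 only (-0.14 ± 0.14, adjusted p = 0.958). In lymphatic-like cells TIE1 was 1.05 to 1.14 (HLS) and 1.245 to 1.55 (LLS), and it overlapped in the other subtypes. The share of all genes without overlap was not counted for these. In endothelial-like cells as a whole the difference for the ligand ANGPT2 was 0.21 ± 0.33 (edgeR adjusted p = 1.0). Over all cells, KDR ran from 1.68 to 7.73 UMI per 10000 between ewes, alongside an endothelial-like share of 19.7% to 54.2%.

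The balance of paired genes was compared as a log2 ratio of UMI, which does not depend on depth. Over all cells such a ratio also joins the mix of cell types. Endothelial-like cells gave a median of 57.8% of ANGPT2 UMI and 2.36% of ANGPT1 UMI. They were 19.7% to 54.2% of the cells of an ewe, and the part of this mix was not tested. The ratio of ANGPT2 to ANGPT1 over all cells was 4.95, 5.73 and 4.35 (HLS replicates 1 to 3) and 5.0, 3.28 and 4.53 (LLS replicates 1 to 3). The group means were 5.01 ± 0.69 and 4.27 ± 0.89 (SD, n = 3), and the difference of 0.74 gave p = 0.5 in an exact two-sided permutation test. The ratio of FLT1 to KDR in endothelial-like cells was -2.04, -2.58 and -1.81 (HLS) and -2.75, -1.98 and -2.17 (LLS), with means of -2.14 ± 0.39 and -2.30 ± 0.40. The difference of 0.15 gave an exact permutation p = 0.6. For both ratios the groups overlapped, and with 3 ewes against 3 the smallest p possible was 0.1.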

How the data were processed

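The authors deposited 6 matrices of raw UMI counts per gene and barcode, made with Cell Ranger 5.0.0 from Chromium 3' v3 libraries (per the labels and the study's methods). The genome build was not given in the sources used here, so no coordinates or sequences are printed. Barcodes were kept with at least 200 genes, at least 1000 UMI, a complexity (log10 of genes detected over log10 of UMI) of at least 0.7, and at most 10% mitochondrial and 5% haemoglobin UMI, which left 38464. Of these, 2007 (5.22%) were removed as doublets by a neighbour score against simulated doublets, in place of the study's doublet caller.

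The remaining cells were scaled by total, reduced to 30 components of 2000 variable genes and clustered (leidenalg 0.10.2, igraph 0.11.9, scikit-learn 1.9.0, scipy 1.17.1, Python 3.11.15, resolution 0.8, and 0.6 within the endothelial-like and granulosa-like cells). Clusters were named from marker lists. The minimum marker scores (0.4, and 0.8 for sub-clusters), the PDGFRA/ACTA2 class, the separate cell cycle class and the rules for unnamed clusters were set after the clusters had been seen. Aromatase was listed as CYP19.

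Raw counts were summed per ewe and type (at least 10 cells) and tested with edgeR 4.0.16 (R 4.3.3, quasi-likelihood, TMM scaling, Benjamini-Hochberg over all tested genes, threshold 0.05), with the ewe as a block between types and without a block between HLS and LLS. The highest type was set against the next with exact sign-flip tests, whose adjusted values over the 9 genes were used only for the count of members that passed. Each lower step of the order was tested in the same way, and the p values were also adjusted over the 6 steps of all 9 genes together. Ratios used exact permutation tests with 0.5 added to each count. The 6 ewes are separate animals. The libraries totalled 43329214 to 75549906 UMI. Named were the 9 members, 7 ligands, coreceptors and regulators of the pathway list, and the genes of most like pattern. Members and lists were chosen with earlier results of these data known. Alternatives were DESeq2 1.42.0 and its size factors, no filter on low counts, no TMM, a replicate block, each ewe left out, doublets kept, a 5% mitochondrial limit, other resolutions, members allowed in clustering, theca joined with stroma, all barcodes for the ANGPT2 to ANGPT1 ratio and, added after seeing the data, endothelial-like cells without the clusters of which 2 ewes held over 90%. Promoter motifs were not analysed here. The scripts for statistics were tested on simulated data.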

Additional observations from a re-analysis of the deposited data

Results flagged for a closer look

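Among 53 sets of 6 ewes with enough UMI for the 9 genes, 4 had 1 ewe that lay apart from the others by more of the whole range than Dixon's 95% critical value for 6 samples, and chance alone sets about 1 in 20 apart. In theca-like cells LLS replicate 1 stood apart for KDR, at 1.048 UMI per 10000 against 0.0358 to 0.109 in the other ewes, for FLT1, at 0.1667 against 0.0256 to 0.0508, and for TIE1, at 0.1588 against 0.00765 to 0.0445. This ewe had 87 theca-like cells, and 8 endothelial reference genes stood there at 2.49 UMI per 10000 against 0.238 to 0.750 in the others, a value that moved with the 3 receptors and whose part was not tested. In perivascular-like cells LLS replicate 2 stood apart for KDR, at 0.5961 against 0.176 to 0.328, where its reference genes, at 2.21, lay within the range of the other ewes (0.681 to 2.67).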

How the results depend on the processing

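With 1 ewe left out at a time, the number of members whose highest type passed the exact test against the next, adjusted over the 9 tests, was 0 to 0 instead of 6, because 5 ewes cannot give a p under 0.0625. It was also 0 when cells over 5% mitochondrial UMI were removed, and the number of members higher in theca-like cells then was 1 instead of 2. The other counts by cell type stayed within 1.5 times under every alternative run, and no alternative called a member between HLS and LLS. Of 356 alternative HLS against LLS log2 differences of single members (22 results, without the ratios), 339 kept their sign and 17 changed it, in 11 results, with 0 gaining a call. Sign changes came with the replicate block (FLT1 in perivascular-like cells, 0.032), the 5% limit (the same gene and cells, 0.64), 2 times the resolution (VEGFC in PDGFRA/ACTA2 cells, 0.00055) and, chosen after seeing the data, without the endothelial clusters that 2 ewes held (FLT1 0.0066 and ANGPT2 -0.076 in endothelial-like cells). VEGFA's gap between immune-like and granulosa-like cells was -0.056 without TMM. Leaving out 1 ewe gave log2 ranges of -0.47 to 0.041 for VEGFA and -0.52 to 1.15 for ANGPT2 in granulosa-like cells, -0.18 to 0.48 for ANGPT2 and -1.50 to 0.070 for FLT4 in endothelial-like cells, -0.47 to 0.82 for FLT1 and -0.54 to 0.29 for KDR in perivascular-like cells, -0.46 to 0.31 for TIE1 and -0.85 to 0.025 for ANGPT1 in immune-like cells, -0.40 to 0.065 for VEGFC in theca-like cells, -0.61 to 0.21 for VEGFC in PDGFRA/ACTA2 cells and -0.072 to 0.37 for the FLT1 to KDR ratio. Where an arm had 2 ewes, the spread was pooled over both arms. The cause of these sign changes was not tested. No source pairs ewes by replicate number, and same-numbered ewes deviated with correlations of -0.35 to 0.30 over the 8 fits. With the replicate block the ANGPT2 to ANGPT1 ratio differed by 0.74 and the FLT1 to KDR ratio by 0.15, VEGFC in endothelial-like cells by -1.10, and 0 members were called. Each replicate number has an ewe of both groups, so the ratio differences are the same with and without the block by arithmetic. They therefore say nothing about the block. Groups of 3 ewes, few UMI of FLT4, TEK and TIE1 outside endothelial-like cells and the unequal shares of cell types limit all group comparisons.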

Other observations

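Some clusters outside the main types also carried receptor RNA, and their values are given without a comparison. An unnamed cluster of 155 cells led by PLAC8 and LAMP3, of which 132 came from LLS replicate 2, held TIE1 at 2.83 UMI per 10000 over all ewes together, with KDR at 0.535 and TEK at 0.197. In endothelial-like cells TIE1 was 1.27 ± 0.230. The cell cycle clusters that also carried endothelial markers (531 and 448 cells) held KDR at 8.12 and 7.82 and FLT4 at 0.714 and 0.810. A shallow cluster of 127 cells with S100A8 and S100A9 among its leading genes held KDR at 5.62. Another shallow unnamed cluster, of 996 cells and nearest to the endothelial markers, held KDR at 6.03 and TIE1 at 1.14.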
